A study of Mus musculus with 12 samples.

Results

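The genes described here are 60 mouse genes of the G2 phase and mitosis, listed by symbol, which serve entry into mitosis, the spindle, the kinetochore or the exit from mitosis. They were listed with earlier results of these data known. A listed gene counted as measured when a probe annotated with that symbol alone had a detection p under 0.01 on at least 4 of the 12 arrays. On this rule 48 of the 60 genes were measured, among 9153 genes tested. Ccnb1 and Mki67 had no probe annotated with that symbol alone, and the probes of Ccnb2, Cks1b, Cks2, Nek2, Hmmr, Cenpe, Nuf2, Bub1, Kif20a and Racgap1 were detected on 0 arrays.

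Expression was measured on Illumina mouse BeadChips, bead arrays hybridised with biotin-labelled cRNA, in the murine calvarial osteoblast line MC3T3, subclone sc4. The cells had been grown to confluence and were on day 4 of osteogenic medium, with beta glycerol phosphate at 4 mM and ascorbic acid at 50 µg/ml. The comparison was between 3 groups of 4 arrays each: cells given the solvent DMSO, cells given 20 µM SAHA for 2 h, and cells given 20 µM SAHA for 6 h. SAHA (suberoylanilide hydroxamic acid, vorinostat) is an inhibitor of histone deacetylases. All groups went through a 40 min collagenase digestion with SAHA or vehicle present before RNA was isolated. How long the controls stayed in DMSO is not given, and the treatment protocol describes a 2 h exposure, so the 6 h group rests on the sample labels. The labels do not say whether the 4 samples of a group came from separate cultures, and the p-values therefore measure the spread between these samples, which may be technical. All cells came from 1 line, and in RNA from whole cultures fewer cells in mitosis and less RNA per cell cannot be told apart.

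Transcripts of mitotic genes build up as cells pass from S phase into G2 and mitosis and are low in resting cells. The kinase CDK1 with its cyclins and PLK1 drive entry, Aurora A and kinesins build the spindle, kinetochores tie chromosomes to it under the watch of the spindle checkpoint, and the anaphase-promoting complex with CDC20 then triggers sister separation before cytokinesis. In resting cells many of these genes are held down through a promoter element known as the CHR, which is contacted by the DREAM and MuvB complexes. Many of their promoters also hold a CCAAT box, the element contacted by NF-Y.

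The arrays detected 14904 to 16065 probes each at p under 0.01, with no group standing apart in that range. Values are log2 intensities after background correction and quantile normalization, with 1 probe per gene. Between arrays of the same group the SD of the per-gene differences was 0.16 to 0.24, and between arrays of different groups it was 0.54 to 0.89. Of 9 osteoblast markers with a named probe, 8 were detected, Dmp1 being the exception. All 6 adipocyte markers and all 5 endothelial markers with a probe were undetected on every array. Of 5 probed markers of macrophages and blood, 4 were undetected, as were 4 of 6 chondrocyte and 3 of 6 skeletal muscle markers.

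Mitotic transcripts were lower after SAHA at both times. At 2 h, 37 of the 48 measured genes fell, 1 rose and 10 did not pass the test, where 58.6% of all genes tested were called, 30.7% lower and 27.8% higher. Their median log2 change was -0.40, against -0.02 for all genes tested. At 6 h, 41 fell, 3 rose and 4 did not pass, where 77.4% of all genes were called, 38.5% lower and 38.9% higher. The median of the 48 was then -0.76, against 0.01 for all genes. With probes undetected in a group set at their bound, the medians were -0.38 and -0.73. Ect2 was detected in the DMSO group alone, so its fall was fixed by the way it entered, and without it 36 of 47 genes fell at 2 h and 40 of 47 at 6 h. A fall of at least 2-fold was called for 4 of the 48 genes at 2 h and for 15 at 6 h (14 without Ect2), where 3.79% and 10.7% of all genes fell that far. Both 6 h counts include Ccna2, which was undetected at 6 h and whose fall is shown only as at least 1.82-fold. Its probe too passed the filter only with its DMSO arrays, and it stays in all counts of fallen genes. Calls rest on limma's moderated test, two-sided, over all 3 groups, with Benjamini-Hochberg adjustment over the 9153 genes and adjusted p under 0.05. Changes are differences of log2 intensity, given ± the standard error of the fit, with n = 4 arrays a group. Both comparisons use the same 4 DMSO arrays.

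**Figure D1:**
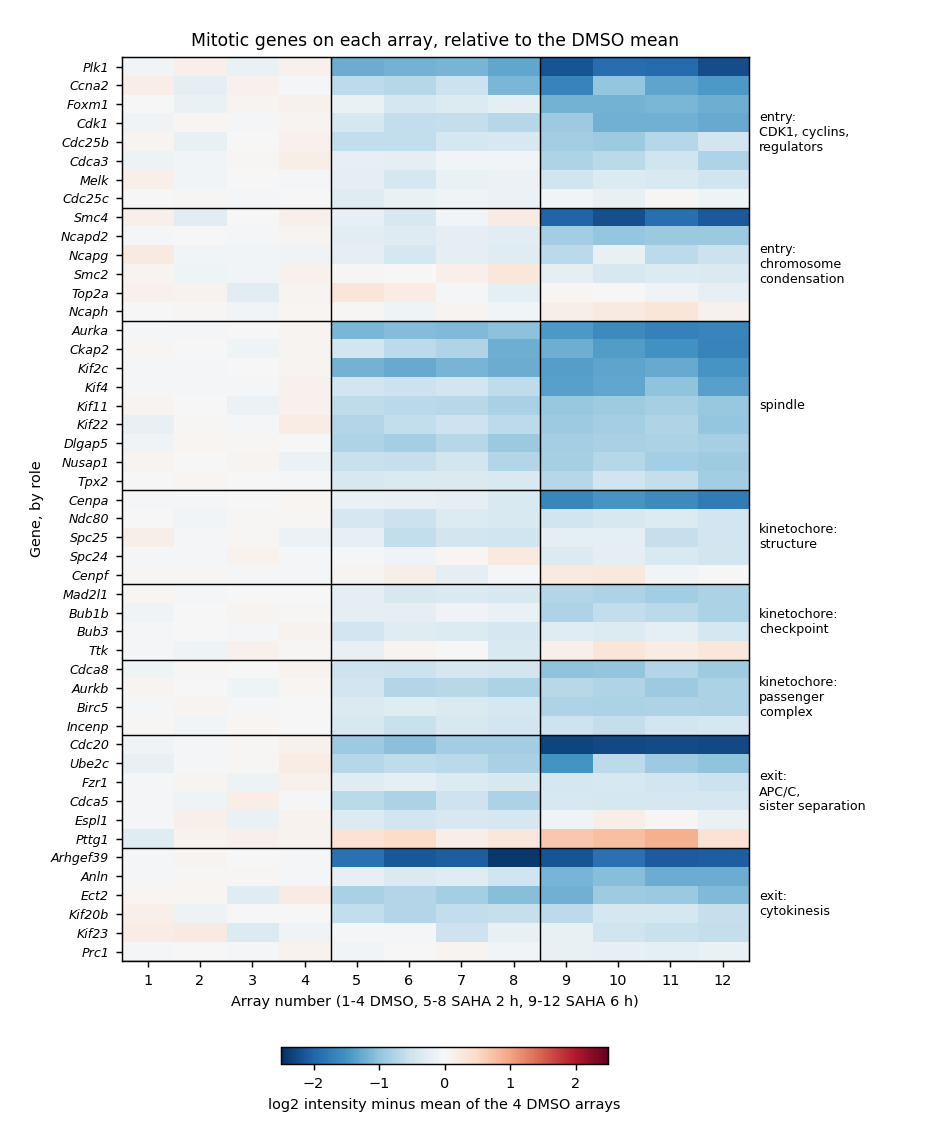
Log2 intensity of each of the 48 measured mitotic genes (rows, by role) on each of the 12 arrays (columns), shown as the difference from the mean of the 4 DMSO arrays. Blue is lower and red is higher: the median gene lies 0.38 to 0.46 below the DMSO mean on the 2 h arrays and 0.69 to 0.79 below it on the 6 h arrays.

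The shift was seen on every treated array. The median deviation of the 48 genes from the DMSO mean lay between -0.03 and 0.05 on the DMSO arrays, between -0.46 and -0.38 on the 2 h arrays and between -0.79 and -0.69 on the 6 h arrays. All genes tested had medians between -0.02 and 0.01 on the same 12 arrays. On single arrays 42 to 44 of the 48 genes were below their DMSO mean after SAHA. The DMSO and 2 h values did not overlap, with 2 h lower, for 36 of the 48 genes, where 27.8% of all genes showed this, and with 2 h higher for 1, where 25.5% did. At 6 h the treated arrays lay below DMSO without overlap for 40 genes, where 34.9% of all genes did, and above it for 3, where 35.9% did.

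The number of calls at 2 h depended on how the arrays were scaled. Scaling by medians moved the median of all genes by 0.12 at 2 h and left 24 of the 48 genes called lower, and with no normalization between arrays it moved by 0.20 and 14 were called lower. Lower genes made up 52.4% of all called genes at 2 h with quantile normalization, 36.9% with median scaling and 27.1% with no normalization. Relative to the median of all genes, the median of the mitotic genes was lower by 0.38 with quantile normalization and by 0.39 under both alternatives. The alternatives differ from each other only by 1 constant per array, so their value here is the same by construction. Among the genes called at 2 h, Bub1b alone changed sign under these scalings. Foxm1, Ncapd2, Cenpa, Mad2l1, Birc5, Fzr1 and Anln, of the 26 genes given below array by array, kept the sign of their 2 h change but were no longer called under median scaling or without normalization. Cdk1, Ndc80, Bub3 and Cdca8 lost their 2 h call with no normalization alone (limma adjusted p = 0.0804, 0.365, 0.368 and 0.352). At 6 h the shift of all genes was -0.01 and -0.04, and the median of the 48 was -0.74 and -0.77.

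**Figure D2:**
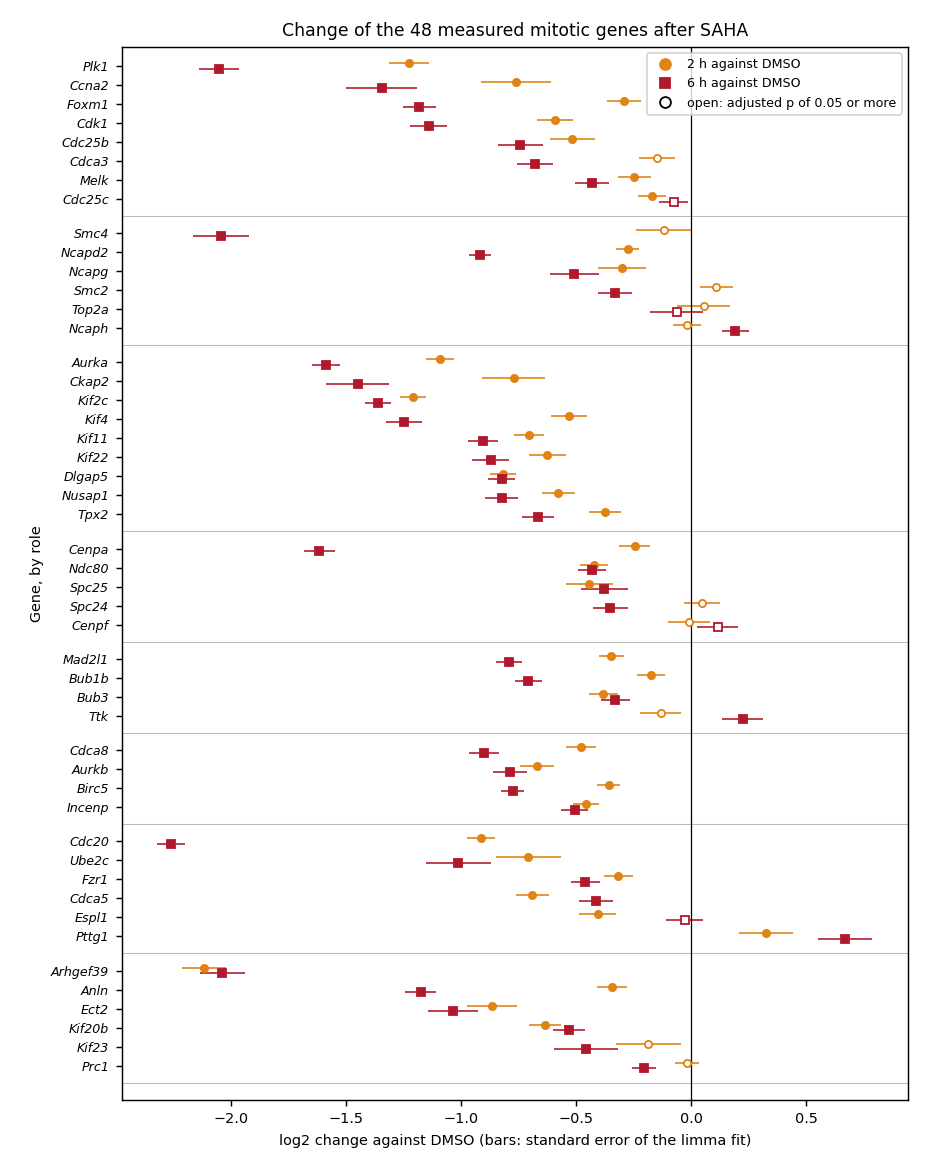
Log2 change against DMSO of the 48 measured mitotic genes at 2 h (circles) and 6 h (squares), grouped by role, with standard errors of the limma fit from 4 arrays a group. Filled symbols passed the test in either direction: 38 of 48 did at 2 h and 44 at 6 h, where 58.6% and 77.4% of all genes did.

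Many of these genes carry the CHR and CCAAT letters near their start. Stretches of 6 promoters are shown as examples: 4 genes that fell, 1 that passed at neither time (Top2a) and 1 that fell early and stayed low (Arhgef39). They include no gene that rose. Melk, Nusap1, Mad2l1 and Birc5, not shown, fell with neither set of letters in the windows described below. The sequences are RefSeq's, from GRCm38.p6, and run 5′ to 3′ on the gene's strand over the 150 bases before the start. Capitals mark the CHR, with the letters TTTGAA, and the CCAAT box, each on either strand. Cdc20 is at chr4:118437344-118437493 on the minus strand, Cdk1 at chr10:69352913-69353062 on the minus strand and Ube2c at chr2:164769779-164769928 on the plus strand. Kif11 is at chr19:37376232-37376381 on the plus strand, Top2a at chr11:99024190-99024339 on the minus strand and Arhgef39 at chr4:43508748-43508897 on the minus strand.
Cdc20: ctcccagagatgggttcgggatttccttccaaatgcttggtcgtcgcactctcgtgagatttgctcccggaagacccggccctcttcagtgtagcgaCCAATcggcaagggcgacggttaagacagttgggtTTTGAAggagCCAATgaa
Cdk1: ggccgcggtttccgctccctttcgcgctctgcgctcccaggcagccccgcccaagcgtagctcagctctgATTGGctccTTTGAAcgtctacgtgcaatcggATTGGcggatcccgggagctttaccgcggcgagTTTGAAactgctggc
Ube2c: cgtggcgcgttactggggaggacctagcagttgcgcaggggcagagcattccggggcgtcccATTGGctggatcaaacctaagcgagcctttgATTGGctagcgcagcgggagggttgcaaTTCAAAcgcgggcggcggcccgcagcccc
Kif11: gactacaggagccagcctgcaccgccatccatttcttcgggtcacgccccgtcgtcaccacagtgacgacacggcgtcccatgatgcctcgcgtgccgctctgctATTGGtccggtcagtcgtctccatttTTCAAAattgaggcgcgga
Top2a: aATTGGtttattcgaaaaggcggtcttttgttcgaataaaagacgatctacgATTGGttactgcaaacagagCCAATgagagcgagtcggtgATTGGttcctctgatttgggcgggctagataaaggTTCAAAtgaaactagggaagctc
Arhgef39: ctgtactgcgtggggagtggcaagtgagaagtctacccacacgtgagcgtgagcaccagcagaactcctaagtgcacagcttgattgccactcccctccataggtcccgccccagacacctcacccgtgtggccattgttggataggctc

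In Cdc20 the CHR letters begin at position -18 and the CCAAT boxes at -53 and -8, counted to the first base of the match, with the base before the start as -1. In Cdk1 the CHR letters begin at -71 and -15, and in Kif11 at -19. The stretch of Top2a holds 4 CCAAT boxes and 1 set of CHR letters, and that of Arhgef39 holds neither motif. Over windows of 250 bases before to 50 after the start, RefSeq entries were matched for 50 of the 60 genes. Both strands were searched, and a CHR and a CCAAT match shared a base in 1 of the 30 promoters that held both.

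CHR letters stood in 35 of the 50 windows (70%), against 18.1% of the windows of 27025 genes and 11.7% of those of 7477 genes tested. A CCAAT box stood in 74% of the 50, against 37.9% and 39.4%. Both stood in 60%, against 7.12% and 4.98%. Among measured genes with a window, CHR letters were present in 26 of the 33 that had fallen at 6 h (78.8%) and in 4 of the 6 that had not (66.7%). Of 30 measured genes with CHR letters, 27 had them within 50 bases of the start, a count not made for other genes. These shares describe letters in a window, without a test. The 50 genes were listed for their part in mitosis and with earlier results of these data known.

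**Figure D3:**
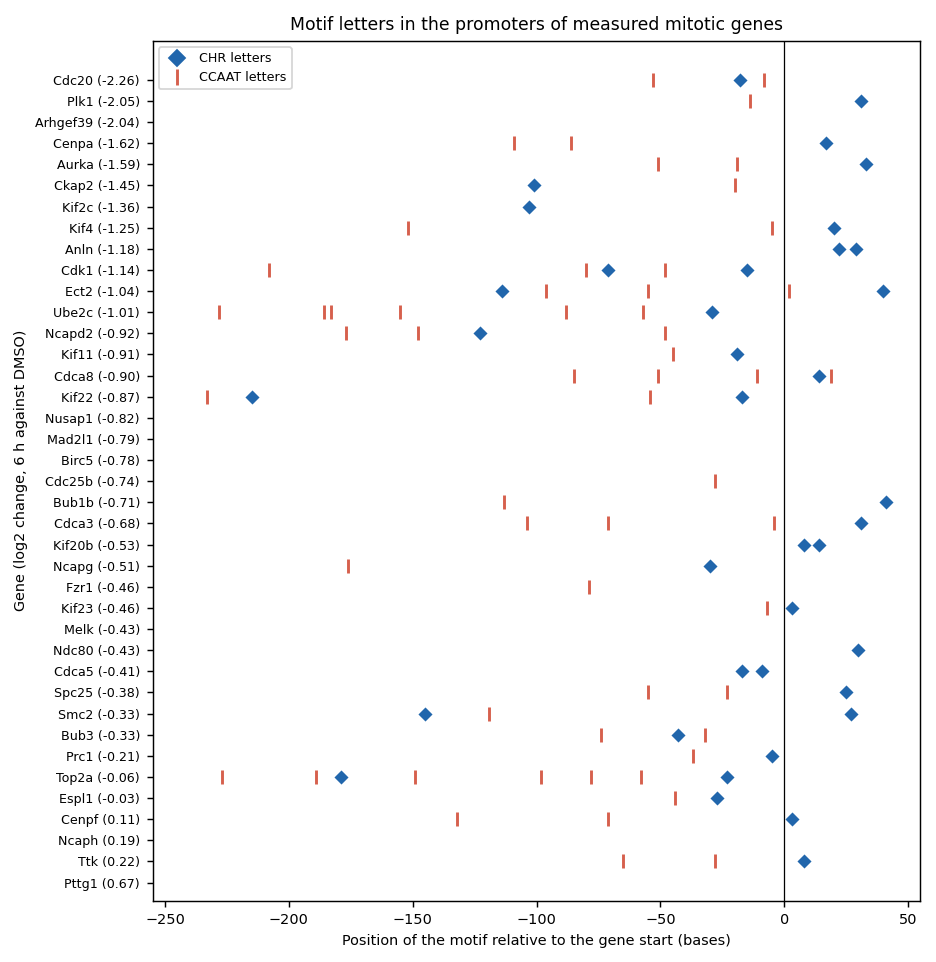
Positions of CHR letters (diamonds) and CCAAT boxes (bars) in the promoter windows of 39 measured mitotic genes, as distance in bases from the gene start. Genes are ordered by their log2 change at 6 h, given in parentheses, and CHR letters appear both among those that fell most and in Top2a, Espl1, Cenpf and Ttk.

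Genes for entry into mitosis fell at 2 h in 9 of 14 measured cases and at 6 h in 11, where 30.7% and 38.5% of all genes fell, with medians of -0.26 and -0.71. In their group of kinases, cyclins and regulators 7 of 8 fell at 2 h and 7 of 8 at 6 h, Cdca3 being the exception at 2 h and Cdc25c at 6 h. Both counts include Ccna2, which passed the filter only with its DMSO arrays. Plk1, a kinase that promotes CDK1 activation, spindle assembly and cytokinesis, fell most among them at 6 h. Its log2 intensity was 12.07, 12.26, 11.97 and 12.26 on the DMSO arrays, 10.89, 10.95, 10.98 and 10.84 at 2 h and 9.98, 10.24, 10.21 and 9.92 at 6 h. The 3 groups did not overlap, and the values stepped down from DMSO to 2 h to 6 h. Plk1 was 2.34-fold lower at 2 h (fell by 1.23 ± 0.09 on the log2 scale, limma adjusted p = 3.96e-08) and 4.15-fold lower at 6 h (fell by 2.05 ± 0.09, limma adjusted p = 7.22e-11). Between 2 h and 6 h it fell by 0.83 ± 0.09 (limma adjusted p = 2.01e-06).

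Cdk1 encodes the kinase at the core of mitotic entry. On the DMSO arrays Cdk1 read 11.58, 11.71, 11.62 and 11.72, at 2 h 11.21, 11.04, 11.06 and 10.94 and at 6 h 10.74, 10.45, 10.46 and 10.41. No group overlapped another, and 1 of the 6 h arrays read higher than the other 3. The fall of Cdk1 was 0.59 ± 0.08 at 2 h (limma adjusted p = 2.28e-05) and 1.14 ± 0.08 at 6 h (limma adjusted p = 1.22e-08), or 2.21-fold.

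Foxm1, a transcription factor that activates G2 and mitosis genes, behaved differently in time from Plk1. Its values were 10.86, 10.71, 10.95 and 10.97 in DMSO, 10.70, 10.43, 10.53 and 10.65 at 2 h and 9.68, 9.70, 9.73 and 9.64 at 6 h. The 2 h arrays lay just below the DMSO arrays and the 6 h arrays lay well below both. Foxm1 fell by 0.29 ± 0.07 at 2 h (limma adjusted p = 0.00327) and by a further 0.89 ± 0.07 from 2 h to 6 h (limma adjusted p = 1.7e-07). A second Foxm1 probe gave log2 changes of -0.33 at 2 h and -1.21 at 6 h.

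Ccna2 encodes cyclin A2, which acts with CDK2 in S phase and with CDK1 before mitosis. Its probe was detected on 4 DMSO arrays, on 3 of the 4 arrays at 2 h and on 0 at 6 h. Log2 intensities were 7.14, 6.72, 7.07 and 6.92 in DMSO, 6.31, 6.25, 6.42 and 5.82 at 2 h and 5.29, 5.99, 5.65 and 5.53 at 6 h. With the 6 h group not above background, Ccna2 was at least 1.82-fold lower at 6 h than in DMSO. No p is given for that change, since the probe passed the filter only with its DMSO arrays. Such a bound sets the DMSO mean against the lowest signal of detected probes on each treated array, or the probe's own value where that is higher. At 2 h the change of Ccna2 was -0.76 ± 0.15, and the DMSO and 2 h arrays did not overlap. That too is a description without a p, for the same reason.

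Cdc25b, a phosphatase that removes inhibitory phosphates from CDK1, fell by 0.52 at 2 h and 0.74 at 6 h, with -0.37 and -0.24 on its other probe. Cdc25c, a phosphatase of the same family, fell by 0.17 at 2 h (limma adjusted p = 0.0276) and had a change of -0.08 at 6 h, which did not pass (limma adjusted p = 0.263). Melk, a kinase of proliferating cells, fell by 0.25 and 0.43. Cdca3, a trigger of mitotic entry through WEE1 degradation, had a change of -0.15 at 2 h, which did not pass, and fell by 0.68 at 6 h, with -0.36 on its other probe.

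Of the genes of chromosome condensation, 2 of 6 fell at 2 h and 4 did not pass, where 30.7% of all genes fell. At 6 h 4 fell, 1 rose and 1 did not pass, where 38.5% of all genes fell and 38.9% rose. Smc4, an ATPase core subunit shared by both condensins, read 9.06, 8.68, 8.95 and 9.08 in DMSO, 8.75, 8.54, 8.87 and 9.14 at 2 h and 6.95, 6.75, 7.06 and 6.83 at 6 h. The DMSO and 2 h arrays overlapped, and every 6 h array lay below both. Its change at 2 h was -0.12 ± 0.12, which did not pass (limma adjusted p = 0.427), and the fall at 6 h was 2.04 ± 0.12 (limma adjusted p = 2.31e-09), or 4.13-fold. The probes of Smc4 disagreed in size, with 6 h changes of -0.63 and -0.86 on the other probes, which gave -0.38 and -0.28 at 2 h. The mean of the Smc4 probes passed at 2 h, with a change of -0.26 (limma adjusted p = 0.0225), so its place among the genes with no call at 2 h rests on the probe chosen.

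Ncapd2, a regulatory subunit of condensin I, was lower on all treated arrays than on any DMSO array. Its log2 intensities were 11.38, 11.40, 11.39 and 11.48 in DMSO, 11.14, 11.08, 11.18 and 11.14 at 2 h and 10.54, 10.45, 10.49 and 10.49 at 6 h. Ncapd2 fell by 0.28 ± 0.05 at 2 h (limma adjusted p = 0.000278) and by 0.92 ± 0.05 at 6 h (limma adjusted p = 8.3e-10). Smc2, the partner ATPase of Smc4, had a change of 0.11 at 2 h, which did not pass, and fell by 0.33 at 6 h, and Ncapg, another condensin I subunit, fell by 0.30 and 0.51. The other Ncapg probe had log2 changes of -0.40 at 2 h and -0.08 at 6 h.

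Ncaph, the condensin I subunit that bridges the ATPases, went the other way. It read 11.59, 11.63, 11.55 and 11.66 in DMSO, 11.64, 11.51, 11.67 and 11.53 at 2 h and 11.75, 11.84, 11.90 and 11.71 at 6 h. The DMSO and 2 h arrays overlapped and the 6 h arrays lay above both. Ncaph rose by 0.19 ± 0.06 at 6 h against DMSO (limma adjusted p = 0.0106), a call lost under median scaling (limma adjusted p = 0.109) and with no normalization (limma adjusted p = 0.399). From 2 h to 6 h it rose by 0.21 ± 0.06 (limma adjusted p = 0.00782), a change of -0.03 with no normalization.

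Top2a, the topoisomerase that untangles sister chromatids and marks cycling cells, did not pass at either time. Its values were 11.14, 11.12, 10.76 and 11.10 in DMSO, 11.34, 11.22, 10.99 and 10.78 at 2 h and 11.06, 11.04, 10.94 and 10.82 at 6 h. All 3 groups overlapped. The changes were 0.05 ± 0.12 at 2 h (limma adjusted p = 0.722) and -0.06 ± 0.12 at 6 h (limma adjusted p = 0.628). On the other probes of Top2a the changes were 0.30 and 0.55 at 2 h and 0.16 and 0.32 at 6 h, and the mean of its probes rose by 0.30 at 2 h (limma adjusted p = 0.000659).

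All 9 measured spindle genes fell at both times, where 30.7% and 38.5% of all genes did, with medians of -0.70 at 2 h and -0.91 at 6 h. Aurka encodes Aurora A, the centrosome kinase that matures spindle poles. It read 11.61, 11.59, 11.66 and 11.70 in DMSO, 10.50, 10.55, 10.53 and 10.61 at 2 h and 10.20, 10.04, 9.96 and 9.99 at 6 h. The groups did not overlap, and most of the fall was present at 2 h. Aurka was 2.13-fold lower at 2 h (fell by 1.09 ± 0.06, limma adjusted p = 4.01e-09) and 3.01-fold lower at 6 h (fell by 1.59 ± 0.06, limma adjusted p = 2.88e-11).

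Kif2c, a kinesin that depolymerises microtubules at centromeres and corrects wrong attachments, had nearly its whole 6 h change by 2 h. The log2 intensities were 11.66, 11.65, 11.70 and 11.77 in DMSO, 10.51, 10.44, 10.53 and 10.47 at 2 h and 10.32, 10.37, 10.43 and 10.23 at 6 h. All treated arrays lay far below the DMSO arrays, and the 6 h arrays lay just below the 2 h arrays. Kif2c fell by 1.21 ± 0.06 at 2 h (limma adjusted p = 1.02e-09) and by 0.15 ± 0.06 more between 2 h and 6 h (limma adjusted p = 0.0323). That last change did not pass when array 5, 7, 9 or 12 was left out (limma adjusted p = 0.0627 to 0.106) and when only the groups compared were fitted (limma adjusted p = 0.0527).

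The other spindle genes fell by 0.37 to 0.82 at 2 h and by 0.67 to 1.45 at 6 h. Ckap2, a microtubule-stabilising protein, fell by 0.77 and 1.45, and Kif4, a chromokinesin, by 0.53 and 1.25. Kif11, the kinesin that pushes spindle poles apart, fell by 0.70 and 0.91, and Kif22, a chromokinesin, by 0.63 and 0.87. Nusap1, which bundles spindle microtubules, fell by 0.58 and 0.82, and Tpx2, the activator of Aurora A, by 0.37 and 0.67. For Dlgap5, which stabilises kinetochore fibres, the falls of 0.82 at 2 h and 0.82 at 6 h differed by less than their error (limma adjusted p = 0.946 for 6 h against 2 h). The other Dlgap5 probe had changes of -0.44 at 2 h and -0.19 at 6 h.

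Kinetochore genes fell in 10 of 13 cases at 2 h and 11 at 6 h, where 30.7% and 38.5% of all genes fell, with medians of -0.36 and -0.51. Cenpa, the histone H3 variant that marks centromeres, changed mainly after 2 h. Its log2 intensities were 14.76, 14.77, 14.79 and 14.84 in DMSO, 14.62, 14.60, 14.56 and 14.40 at 2 h and 13.15, 13.31, 13.20 and 13.04 at 6 h. The 2 h arrays lay slightly below the DMSO arrays and the 6 h arrays more than 1 log2 unit below both. Cenpa fell by 0.25 ± 0.07 at 2 h (limma adjusted p = 0.006) and by 1.37 ± 0.07 from 2 h to 6 h (limma adjusted p = 1.27e-09), and was 3.07-fold lower than DMSO at 6 h. The other Cenpa probe, detected on 8 arrays, had a log2 change of -1.82 at 6 h.

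Ndc80, the microtubule-binding subunit of the outer kinetochore, fell early and stayed at that level. It read 11.13, 11.06, 11.15 and 11.15 in DMSO, 10.70, 10.58, 10.79 and 10.73 at 2 h and 10.63, 10.72, 10.78 and 10.64 at 6 h. Treated arrays lay below the DMSO arrays, and the 2 h and 6 h arrays overlapped. The falls were 0.42 ± 0.06 at 2 h (limma adjusted p = 3.28e-05) and 0.43 ± 0.06 at 6 h (limma adjusted p = 1.38e-05). Its complex partner Spc25 fell by 0.44 and 0.38, and Spc24, another partner, had a change of 0.04 at 2 h, which did not pass, and fell by 0.35 at 6 h, with -0.05 and -0.75 on its other probe. Cenpf, a large outer kinetochore protein of G2 and mitosis, did not pass at either time, with changes of -0.01 ± 0.09 and 0.11 ± 0.09.

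Of the spindle checkpoint genes, Mad2l1, Bub1b and Bub3 fell at both times. Mad2l1, the checkpoint protein that binds CDC20, read 13.24, 13.14, 13.22 and 13.19 in DMSO, 12.96, 12.80, 12.83 and 12.80 at 2 h and 12.46, 12.43, 12.33 and 12.40 at 6 h. The groups did not overlap and stepped down. Mad2l1 fell by 0.35 ± 0.06 at 2 h (limma adjusted p = 9.59e-05) and 0.79 ± 0.06 at 6 h (limma adjusted p = 1.1e-08). Bub1b encodes BUBR1, another part of the complex that holds CDC20. Its values were 12.19, 12.28, 12.35 and 12.31 in DMSO, 12.04, 12.06, 12.20 and 12.12 at 2 h and 11.52, 11.67, 11.61 and 11.50 at 6 h. DMSO and 2 h overlapped by 1 array, and the 6 h arrays were lower than all others.

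Bub1b fell by 0.18 ± 0.06 at 2 h (limma adjusted p = 0.022), a change of 0.01 under median scaling and 0.10 with no normalization, and it did not pass when array 3, 4, 5 or 6 was left out (limma adjusted p = 0.0509 to 0.0635). At 6 h it fell by 0.71 ± 0.06 (limma adjusted p = 9.93e-08). Bub3, which brings checkpoint proteins to kinetochores, read 9.59, 9.65, 9.60 and 9.72 in DMSO, 9.17, 9.35, 9.30 and 9.21 at 2 h and 9.34, 9.31, 9.40 and 9.19 at 6 h. Both treated groups lay below DMSO and overlapped each other, with falls of 0.38 ± 0.06 (limma adjusted p = 0.000115) and 0.33 ± 0.06 (limma adjusted p = 0.000232).

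Ttk encodes MPS1, the kinase that starts checkpoint signalling. It read 6.73, 6.67, 6.88 and 6.79 in DMSO, 6.58, 6.83, 6.75 and 6.38 at 2 h and 6.89, 7.07, 6.95 and 7.05 at 6 h. DMSO and 2 h overlapped, and the 6 h arrays lay above both, by as little as 0.01 over the highest DMSO array. Ttk had a change of -0.13 ± 0.09 at 2 h, which did not pass, and rose by 0.22 ± 0.09 at 6 h (limma adjusted p = 0.0349). The 6 h call was lost under median scaling (limma adjusted p = 0.198), with no normalization (limma adjusted p = 0.434), with the authors' normalized values (limma adjusted p = 0.0701) and on leaving out array 1, 2, 4, 10 or 12 (limma adjusted p = 0.0524 to 0.0943).

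All 4 genes of the chromosomal passenger complex, which corrects attachments and directs cytokinesis, fell at both times, where 30.7% and 38.5% of all genes did, with medians of -0.47 and -0.78. Its kinase Aurkb (Aurora B) read 11.01, 10.92, 10.83 and 10.98 in DMSO, 10.46, 10.20, 10.24 and 10.15 at 2 h and 10.24, 10.18, 10.03 and 10.15 at 6 h. The treated arrays lay below DMSO and overlapped each other. Aurkb fell by 0.67 ± 0.07 at 2 h (limma adjusted p = 3.21e-06) and 0.79 ± 0.07 at 6 h (limma adjusted p = 2.71e-07), and 6 h did not pass against 2 h (limma adjusted p = 0.195). Incenp, the scaffold of the complex, followed the same course, with falls of 0.46 and 0.51.

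Birc5 encodes survivin, which docks the complex on centromeres. It read 12.30, 12.40, 12.31 and 12.36 in DMSO, 11.98, 12.04, 11.99 and 11.92 at 2 h and 11.57, 11.56, 11.58 and 11.55 at 6 h. Cdca8 encodes borealin, which binds survivin. Its values were 12.19, 12.33, 12.27 and 12.37 in DMSO, 11.78, 11.76, 11.88 and 11.83 at 2 h and 11.29, 11.31, 11.55 and 11.40 at 6 h. For both genes the 3 groups stepped down without overlap. Birc5 fell by 0.36 ± 0.05 and 0.78 ± 0.05 (limma adjusted p = 2.42e-05 and 4.04e-09), and Cdca8 by 0.48 ± 0.07 and 0.90 ± 0.07 (limma adjusted p = 2.78e-05 and 1.93e-08).

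**Figure D4:**
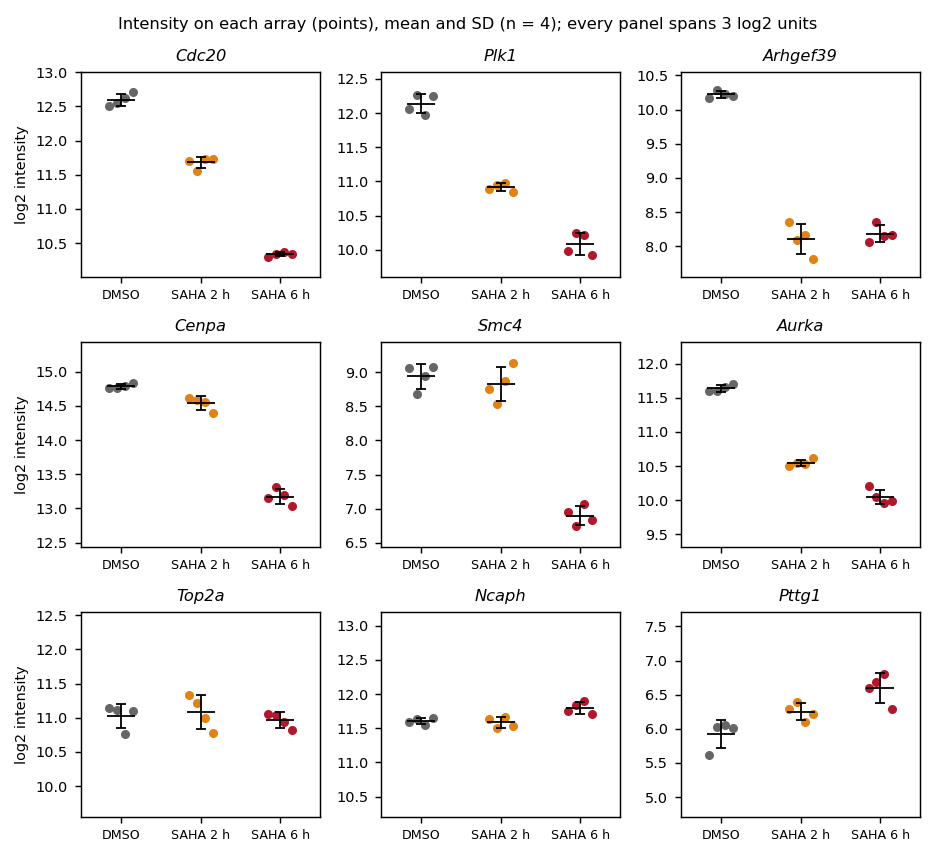
Log2 intensity of 9 mitotic genes on each array (points), with the mean and SD of the 4 arrays of each group, every panel spanning 3 log2 units. Cdc20, Plk1 and Aurka step down at 2 h and again at 6 h, Arhgef39 is at its low level by 2 h, Cenpa and Smc4 drop mainly by 6 h, and Top2a, Ncaph and Pttg1 were called lower at neither time.

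Genes for the exit from mitosis fell in 9 of 12 cases at 2 h and 10 at 6 h (8 and 9 of 11 without Ect2), where 30.7% and 38.5% of all genes fell, with medians of -0.52 and -0.50, or -0.38 and -0.46 with Ect2 at its bound. Cdc20, the activator of the anaphase-promoting complex at metaphase, had the lowest 6 h change among the 48 genes. It read 12.50, 12.55, 12.62 and 12.71 in DMSO, 11.70, 11.56, 11.74 and 11.74 at 2 h and 10.30, 10.34, 10.37 and 10.34 at 6 h. The groups stepped down without overlap, and the 6 h arrays lay within 0.07 of each other. Cdc20 was 1.89-fold lower at 2 h (fell by 0.91 ± 0.06, limma adjusted p = 2.04e-08) and 4.79-fold lower at 6 h (fell by 2.26 ± 0.06, limma adjusted p = 1.62e-12). Its 3 other probes had log2 changes of -0.86 to -1.10 at 2 h and -1.93 to -2.36 at 6 h.

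Fzr1 encodes CDH1, the activator that takes over from CDC20 late in mitosis. Its log2 intensities were 12.52, 12.64, 12.45 and 12.67 in DMSO, 12.27, 12.34, 12.24 and 12.17 at 2 h and 12.13, 12.18, 12.10 and 12.03 at 6 h. Treated arrays lay below DMSO, with falls of 0.32 ± 0.06 at 2 h (limma adjusted p = 0.000619) and 0.46 ± 0.06 at 6 h (limma adjusted p = 1.23e-05). The other Fzr1 probes had log2 changes of -0.30 and -0.05 at 2 h and of -0.38 and -0.15 at 6 h. Ube2c, the ubiquitin-conjugating enzyme of the complex, read 7.48, 7.65, 7.69 and 7.85 in DMSO, 6.96, 7.03, 6.99 and 6.85 at 2 h and 6.17, 7.02, 6.77 and 6.67 at 6 h. Its 6 h arrays spread over 0.85, overlapped the 2 h arrays and stayed below DMSO. Ube2c fell by 0.71 ± 0.14 (limma adjusted p = 0.000619) and 1.01 ± 0.14 (limma adjusted p = 1.39e-05), and 6 h did not pass against 2 h (limma adjusted p = 0.0728), though it did under median scaling (limma adjusted p = 0.027), with no normalization (limma adjusted p = 0.0116), without array 10 (limma adjusted p = 0.0115) and with array weights (limma adjusted p = 0.0285). On the authors' values it passed with the replicate number as a block (limma adjusted p = 0.0385) and not without it (limma adjusted p = 0.0706).

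Among the genes of sister separation, Espl1, which encodes separase, the protease that cuts cohesin, fell by 0.41 ± 0.08 at 2 h (limma adjusted p = 0.000625) and was at -0.03 ± 0.08 at 6 h, which did not pass. From 2 h to 6 h it rose by 0.38 ± 0.08 (limma adjusted p = 0.00106). Cdca5, which encodes sororin, a protector of sister cohesion, fell by 0.69 ± 0.07 at 2 h and 0.41 ± 0.07 at 6 h, and rose by 0.28 ± 0.07 between them (limma adjusted p = 0.00423).

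Pttg1 encodes securin, the inhibitor of separase, and was higher on all treated arrays than on any DMSO array. It read 5.61, 6.02, 6.05 and 6.01 in DMSO, 6.30, 6.39, 6.10 and 6.21 at 2 h and 6.59, 6.68, 6.80 and 6.29 at 6 h, with 1 DMSO array well under the other 3. Its probe was near background, detected on 2 DMSO arrays, 2 arrays at 2 h and 4 at 6 h. Pttg1 rose by 0.32 ± 0.12 at 2 h (limma adjusted p = 0.0299) and 0.67 ± 0.12 at 6 h (limma adjusted p = 0.000144), or 1.59-fold. The 2 h change did not pass when array 1, 5 or 6 was left out (limma adjusted p = 0.0640 to 0.0980) and with no background correction, where the change was 0.16 (limma adjusted p = 0.0532).

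Apart from Ect2, all 5 measured cytokinesis genes fell by 6 h, and 3 of them already at 2 h, where 38.5% and 30.7% of all genes fell. Arhgef39, a guanine nucleotide exchange factor listed here with cytokinesis, had the lowest 2 h change among the 48. It read 10.17, 10.29, 10.23 and 10.20 in DMSO, 8.35, 8.09, 8.16 and 7.82 at 2 h and 8.07, 8.36, 8.14 and 8.17 at 6 h. Every treated array lay more than 1.8 below every DMSO array, and the treated groups overlapped. Arhgef39 was 4.34-fold lower at 2 h (fell by 2.12 ± 0.10, limma adjusted p = 8.39e-10) and 4.11-fold lower at 6 h (fell by 2.04 ± 0.10, limma adjusted p = 2.23e-10).

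Anln encodes anillin, the scaffold of the contractile ring. Its values were 12.91, 12.96, 12.96 and 12.91 in DMSO, 12.73, 12.58, 12.63 and 12.44 at 2 h and 11.78, 11.87, 11.70 and 11.70 at 6 h. The groups stepped down without overlap, mainly between 2 h and 6 h. Anln fell by 0.35 ± 0.07 at 2 h (limma adjusted p = 0.000483) and by 1.18 ± 0.07 at 6 h (limma adjusted p = 1.25e-09), with -0.13 and -0.78 on its other probe. Prc1, which bundles microtubules of the central spindle, moved little. It read 13.22, 13.28, 13.23 and 13.35 in DMSO, 13.21, 13.27, 13.33 and 13.20 at 2 h and 13.08, 13.06, 13.02 and 13.09 at 6 h. DMSO and 2 h overlapped, with a change of -0.02 ± 0.05 that did not pass, and the 6 h arrays lay below both.

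Prc1 fell by 0.21 ± 0.05 at 6 h (limma adjusted p = 0.00282), a call lost under median scaling (limma adjusted p = 0.116) and with no normalization (limma adjusted p = 0.255). Ect2, an exchange factor needed for cleavage, was detected on 4 DMSO arrays and on 0 treated arrays, so it entered the measured genes through the DMSO group alone. It was at least 1.13-fold lower at 2 h and at least 1.11-fold lower at 6 h, which is a description without a test. Kif20b, a kinesin of late cytokinesis, fell by 0.64 and 0.53, and Kif23, a kinesin subunit of centralspindlin, had a change of -0.19 at 2 h, which did not pass, and fell by 0.46 at 6 h. The other 3 probes of Kif23 had changes of -0.44, -0.45 and -0.29 at 2 h and of -0.90, -1.17 and -0.59 at 6 h. On the authors' values, Kif23 passed with the replicate number as a block at 2 h (limma adjusted p = 0.0137) and from 2 h to 6 h (limma adjusted p = 0.00949), and not without it (limma adjusted p = 0.119 and 0.0966).

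Between 2 h and 6 h, 26 of the 48 genes fell, 5 rose and 17 did not pass, where 62.7% of all genes were called, 28.4% lower and 34.4% higher. Lower genes made up 45.2% of all called genes in this comparison with quantile normalization, 63.6% with median scaling and 79.4% with no normalization, and the 5 rises, of Ncaph, Ttk, Pttg1, Espl1 and Cdca5, were called under neither alternative. Read over all 3 comparisons, 21 genes fell at 2 h and further by 6 h, where 13.5% of all genes did so. Cdk1, Plk1, Aurka, Cenpa and Cdc20 are among these 21. So is Ccna2, whose fall after 2 h is shown only as at least 1.07-fold, its probe being undetected at 6 h. A further 13, Ect2 included, fell at 2 h and had 6 h values not called different from 2 h, where 8.5% of all genes did so, among them Arhgef39, Dlgap5, Ndc80, Aurkb and Incenp. Cdca3, Smc2, Smc4, Spc24, Kif23 and Prc1 fell against DMSO at 6 h without a call at 2 h, where 12.6% of all genes did so. For some of them this place depends on the values or the probe used. Cdca3 was called lower at 2 h on the authors' values without a block (limma adjusted p = 0.0367). The other probes of Smc4 and Kif23 had larger falls at 2 h than the probes used.

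The course after 2 h is given by stage without a test of one stage against another. From 2 h to 6 h, 28.4% of all genes fell and 34.4% rose. Of the 9 spindle genes, 8 fell further after 2 h, Dlgap5 being the exception. Entry genes fell in 9 of 14 cases and rose in 1, and kinetochore genes fell in 6 of 13 and rose in 1. In the exit group of 12, Cdc20, Anln and Prc1 fell while Espl1, Cdca5 and Pttg1 rose from 2 h to 6 h.

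Of 48 genes, 24 had more than 1 detected probe. The 35 probes not used had the sign of the used probe in 33 cases at 2 h and in 33 at 6 h.

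Other genes of the same processes come from lists chosen with earlier results known, and how they differ from the 48 genes was not tested. Among other spindle and centrosome genes 18 of 28 fell and 6 rose at 6 h, where 38.5% of all genes fell and 38.9% rose, with a median of -0.44. Aspm, a spindle pole protein, fell by 1.53 ± 0.09 (limma adjusted p = 3.36e-09) and Plk4, the kinase of centriole duplication, by 1.08 ± 0.09 (limma adjusted p = 1.1e-07), with falls of 1.41 and 1.12 already at 2 h. Mapre1, a microtubule end-binding protein, fell by 0.87, and Haus8, an augmin subunit, rose by 0.98.

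Other kinetochore and checkpoint genes fell in 14 of 29 cases and rose in 9 at 6 h, with a median of -0.19, where 38.5% of all genes fell and 38.9% rose. Hjurp, the chaperone that loads CENP-A, read 12.82, 12.76, 13.04 and 12.98 in DMSO, 11.44, 11.40, 11.68 and 11.56 at 2 h and 11.29, 11.27, 11.49 and 11.44 at 6 h. Its treated arrays lay more than 1 log2 unit below DMSO and overlapped each other. Hjurp fell by 1.38 ± 0.08 at 2 h (limma adjusted p = 9.23e-09) and 1.52 ± 0.08 at 6 h (limma adjusted p = 9.82e-10), and Cenpa, its client, had fallen by 0.25 and 1.62. Ska2, which couples kinetochores to microtubules, fell by 1.67 at 6 h and Spdl1, an adaptor for dynein at kinetochores, by 1.10, while Cenpp, an inner kinetochore protein, rose by 1.24.

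Of the other condensin and cohesin genes, 9 of 16 fell and 3 rose at 6 h, with a median of -0.29, where 38.5% of all genes fell and 38.9% rose. The cohesin subunits Stag1, Stag2 and Smc1a fell by 1.99, 1.09 and 1.04 at 6 h, and Sgo2a, a protector of centromeric cohesion, by 0.69. The 3 that rose at 6 h were Smc3, also a cohesin subunit, by 0.71, Esco2 by 1.04 and Ncapd3 by 0.67. Core subunits of the anaphase-promoting complex and related genes fell in 8 of 13 cases and rose in 3 at the same time, against the same shares of all genes. Anapc16 and Cdc16, both subunits, fell by 0.84 and 0.86 at 6 h, and Cdc26, another subunit, was undetected at 6 h and at least 1.43-fold lower. The probe of Cdc26 was detected on 4 DMSO arrays, 1 array at 2 h and 0 at 6 h. It passed the filter only with its DMSO arrays, and Cdc26 stays in the count of 8. Mad2l1bp, which dismantles the checkpoint complex, rose by 0.70. Of 11 other cytokinesis genes, 5 fell and 2 rose at 6 h, where 38.5% of all genes fell and 38.9% rose. Diaph3, a formin, fell by 0.89, Cit, the citron kinase, by 0.53, and Chmp4b, an abscission factor, by 0.27, while Myh9, a non-muscle myosin heavy chain, rose by 0.28.

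Of 16 measured genes of the DREAM, E2F and Myb group, which regulate mitotic promoters, 5 fell and 8 rose at 6 h, with a median of 0.21, where 38.5% of all genes fell and 38.9% rose. Nfyc, a subunit of the CCAAT-binding factor NF-Y, read 12.90, 12.98, 12.88 and 12.99 in DMSO, 11.92, 11.84, 11.90 and 11.74 at 2 h and 11.25, 11.28, 11.21 and 11.10 at 6 h. The groups stepped down without overlap, and Nfyc fell by 1.09 ± 0.06 at 2 h and fell by 1.72 ± 0.06 at 6 h (limma adjusted p = 3.89e-09 and 1.27e-11). The other NF-Y subunits did not share falls of this size. Nfya passed at neither time, with changes of -0.35 and 0.19. Nfyb had a change of -0.08 at 2 h, which did not pass, and fell by 0.25 at 6 h. Lin54, the MuvB subunit that contacts the CHR, rose by 0.93 ± 0.06 at 2 h and 0.95 ± 0.06 at 6 h (limma adjusted p = 9.1e-09 and 2.12e-09). Rb1, the retinoblastoma protein gene, rose by 1.14 at 6 h, Tfdp2, a partner of E2F factors, by 1.04, and E2f4, a repressive E2F of DREAM, by 0.27. Mybl2, which encodes the B-MYB activator of mitotic genes, did not pass at either time, with changes of 0.16 ± 0.07 and 0.10 ± 0.07. Whether these changes bear on the mitotic genes was not tested.

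**Figure D5:**
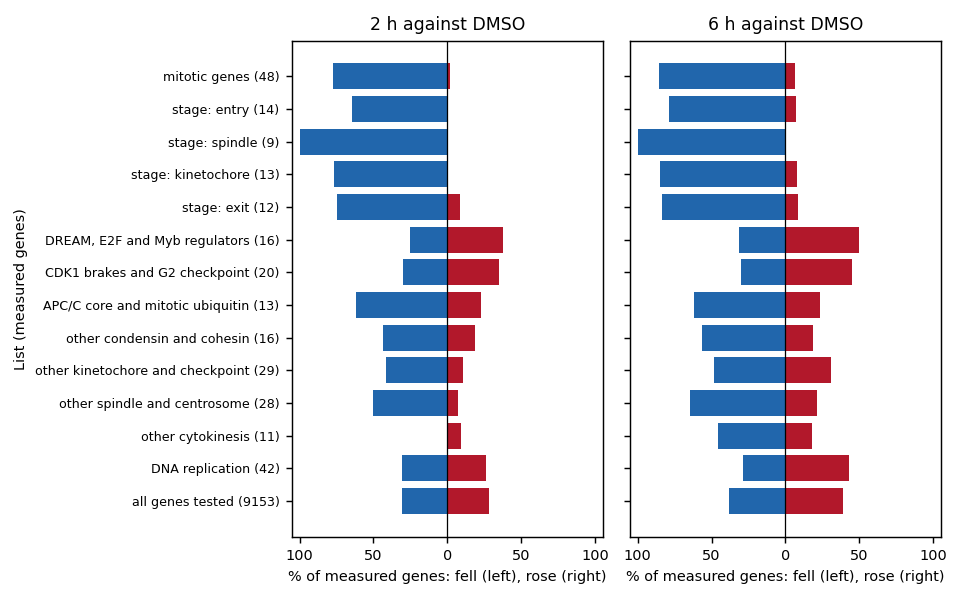
Percent of measured genes of each list that fell (left of 0) and rose (right of 0) at 2 h and at 6 h against DMSO, with the number measured in parentheses. At 6 h the bar of the 48 mitotic genes reads 41 fallen and 3 risen, and that of 42 DNA replication genes 12 fallen and 18 risen. Of all genes tested, 38.5% fell and 38.9% rose at 6 h.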

How the data were processed

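RNA of 12 samples, 4 a group, was measured on Illumina mouse BeadChips. Per the file headers, the deposited table holds non-normalized probe intensity with a detection p-value per probe and array; scanner settings are not given in the sources used here. The authors' normalized intensity values were also deposited, on a linear scale with column medians of 98.1 to 99.2 and an unstated method, and served as an alternative. In the non-normalized table array columns carry a group and a running number, so arrays are named 1 to 4 (DMSO), 5 to 8 (2 h) and 9 to 12 (6 h).

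From the intensities, background was corrected with limma's nec (offset 16, using detection p-values), followed by quantile normalization and log2 (R 4.3.3, limma 3.58.1). Of 45281 probes, 16431 had detection p under 0.01 on at least 4 arrays. GEO's platform annotation named 34885 probes with 1 symbol, 18 with several and 10378 with none. The 14136 detected probes with 1 symbol gave 9153 genes, each by its probe of highest mean. A model over the 3 groups with eBayes was fitted to all genes. This fit alone was tested on simulated log2 values, with independent normal noise and a far smaller share of changed genes than is called here. Background correction, normalization, the detection filter and the probe choice were not tested in this way. The number of arrays limits the precision: the median standard error of a change was 0.07 for the mitotic genes. Replicate numbers stand in the columns of the authors' normalized values only, so the block was fitted there. On those values the deviations of same-numbered samples correlated at 0.18 to 0.36 (DMSO and 2 h) and 0.15 to 0.35 (2 h and 6 h), over 0.1 in all 4 pairs each. For DMSO and 6 h the range was -0.04 to 0.13, with 2 of 4 over 0.1. The numbers were read as a possible pairing, shown less clearly for DMSO and 6 h. The block covered all 12 samples, and p-values not given with a block ignore any pairing. Alternatives covered background, offset, normalization, filter, probe choice, variance model, threshold, array weights, the authors' values and each array left out in turn.

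The mitotic genes and the other lists were chosen with earlier results of these data known. Named array by array were 19 genes fixed by name (of which Ccnb1 and Mki67 were not measured), the 2 genes of smallest p at 6 h in each role and every gene that rose against DMSO. From each other list up to 4 genes of smallest p at 6 h were named, with Cdkn1a, Wee1, Mybl2 and E2f4 by name. Nfya, Nfyb, Smc3, Esco2 and Ncapd3 were added after seeing the values, to show genes beside those that fell.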

Additional observations from a re-analysis of the deposited data

Results flagged for a closer look

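For the 26 genes given array by array, each group of 4 arrays was searched for an array far from the other 3 by Dixon's test. Of 78 groups, 4 had such an array, and chance gives about 1 in 20. Cdk1 read 10.74 on array 9 of the 6 h group, where the other 3 arrays read 10.41 to 10.46. Ncapd2 read 11.48 on DMSO array 4, against 11.38 to 11.39. Top2a read 10.76 on DMSO array 3, against 11.10 to 11.14. Pttg1 read 5.613 on DMSO array 1, against 6.01 to 6.05, and its 2 h rise did not pass without that array. The 4 genes were on 4 different arrays.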

How the results depend on the processing

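The counts of fallen genes kept within 1.5 times their value under every alternative at 6 h (38 to 41) and for 6 h against 2 h (22 to 29), and at 2 h in all but the scaling alternatives (24 with median scaling, 14 with no normalization). Genes risen at 2 h numbered 0 with no background correction, probes detected on all 12 arrays, no detection filter, the trend and robust variance model or adjusted p under 0.01, and 2 with the mean of a gene's probes. Genes risen at 6 h numbered 1 with median scaling, no normalization or adjusted p under 0.01, and those risen from 2 h to 6 h numbered 0 with median scaling or no normalization. The median change at 2 h was -0.30 with median scaling, -0.21 with no normalization and -0.33 with no filter. At 6 h it was -0.67 with no background correction, -0.69 with an offset of 50 or the mean of probes, -0.66 with the authors' values (with or without the replicate block) and -0.52 with no filter. For 6 h against 2 h it was -0.19 with no background correction or the authors' values (with or without the replicate block), -0.36 with median scaling, -0.48 with no normalization and -0.18 with no filter. With no filter, 58 listed genes enter, 10 of them undetected. Reversed single values were Bub1b at 2 h (0.010 with median scaling, 0.097 with no normalization) and Ncaph from 2 h to 6 h (-0.028 with no normalization), and the cause was not tested.

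Leaving out each array in turn gave 34 to 37 fallen and 0 to 1 risen at 2 h (0 without array 1, 5 or 6), 41 fallen and 2 to 3 risen at 6 h, and 24 to 28 fallen and 4 to 5 risen from 2 h to 6 h. The medians were -0.41 to -0.37, -0.78 to -0.74 and -0.26 to -0.19. For single genes, 950 values under the other alternatives kept direction and call, 46 lost the call, 9 gained it and 3 reversed; leaving out an array kept 915, with 19 lost and 2 gained.

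With the replicate numbers as a block on the authors' values, 39, 41 and 29 genes were called lower at 2 h, at 6 h and from 2 h to 6 h, and 1, 2 and 5 higher. Without the block the same values gave 38, 41 and 27 lower and 1, 2 and 5 higher. On those values the block changed the call of Kif23 at 2 h and of Kif23 and Ube2c from 2 h to 6 h, and no other call among the 48 genes. Without Ect2, a choice made after seeing the data, 36, 40 and 26 of 47 genes fell. Ccna2 stays in these counts.

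Low signal limits Ccna2, Ect2 and Pttg1, whose probes were undetected in part or all of a group, and 10 listed genes gave no value.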

Other observations

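Of 20 measured genes that regulate CDK1 or act in the G2 checkpoint, brakes and activators together, 6 fell and 9 rose at 6 h, where 38.5% of all genes fell and 38.9% rose. Cdkn1b, which encodes the CDK inhibitor p27, fell by 1.04 ± 0.07 (limma adjusted p = 1.3e-08), and Pkmyt1, a kinase that adds inhibitory phosphates to CDK1, fell by 0.68 ± 0.08 (limma adjusted p = 2.19e-06). Gadd45a, a stress protein of the G2 checkpoint, rose by 0.98 ± 0.08 (limma adjusted p = 3.21e-08), as did Arpp19, an inhibitor of the phosphatase that opposes CDK1, by 0.66 ± 0.06 (limma adjusted p = 2.49e-07). Cdkn1a, which encodes p21, a CDK inhibitor, had a log2 change of 0.16 ± 0.06 at 2 h (limma adjusted p = 0.038) and -0.13 ± 0.06 at 6 h, which did not pass (limma adjusted p = 0.0693). Wee1 was not measured here.

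DNA replication genes peak earlier in the cycle. At 6 h, of 42 measured, 18 rose, 12 fell and 12 did not pass, where 38.9% of all genes rose and 38.5% fell, and their median change was 0.09, or 0.05 with undetected probes at their bound. Tk1, the thymidine kinase of S phase, read 12.08, 12.11, 12.20 and 12.17 in DMSO, 11.43, 11.30, 11.36 and 11.38 at 2 h and 9.88, 9.71, 9.71 and 9.60 at 6 h, and fell by 2.41 ± 0.06 at 6 h (limma adjusted p = 1.48e-12). Its groups stepped down without overlap. Rpa1, the large subunit of the single-strand binding protein, rose by 1.29 ± 0.06, Gins4, a helicase subunit, by 1.19 ± 0.06, and Prim2, a primase subunit, by 1.25 ± 0.08 at 6 h (limma adjusted p = 1.46e-10, 4.19e-10 and 4.76e-09). Replication and mitotic genes were compared with the same DMSO arrays, and the difference between the lists was not tested.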
